A study of Homo sapiens with 16 samples.

Results

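Long noncoding RNAs that carry an intergenic symbol (LINC and a number) or an antisense symbol (the name of another gene followed by -AS and a number) were described across 4 treatments of a leukaemia cell line. Of 2144 genes with such a symbol among the 60669 genes of the count table, 258 had a mean of at least 1 CPM (expected counts as parts of 1000000 of the library's total) over the 16 libraries, and these are the members. They comprise 77 LINC and 181 antisense symbols. A further 810 genes with such a symbol had 0 counts in every library. The mean level chose the members, so their levels are given as a description, and the rule uses no treatment comparison. A member may still have passed through the treatment in which it was high, since 35 of the 258 had a mean under 1 CPM in at least 1 treatment. Just inside the threshold lay LINC01588 at 1.01 CPM, LINC00886 at 1.01 CPM and LINC01481 at 1.01 CPM, and just outside it lay KDM4A-AS1 at 0.986 CPM, PAXIP1-AS2 at 0.983 CPM and PTOV1-AS2 at 0.963 CPM. All 258 members also passed the filter on low counts that preceded the tests.

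The cells were MOLM-13, an established line of human acute myeloid leukaemia that carries an MLL fusion. They were kept for 4 days in 0.005% DMSO, in an EZH2 inhibitor at 1 µM (EZH2i), in a PRMT5 inhibitor at 1 µM (PRMT5i), or in both inhibitors (the combination), with 4 libraries of total RNA for each treatment, and no label gives a genetic change between the groups. No label names the compounds. The sources used here do not say whether replicates were separate cultures, so a p-value covers only the spread between these libraries, which may be technical. EZH2 is the enzyme of polycomb repressive complex PRC2 that trimethylates histone H3 at lysine 27. PRMT5 places symmetric dimethyl marks on arginines of histones, spliceosomal Sm proteins and other proteins. Libraries held 31.1 to 52.9 M expected counts. All 10 of 10 listed markers of myeloid leukaemia cells averaged at least 1 CPM, with sums of 1736 to 1985 CPM in DMSO, 1625 to 1820 under EZH2i, 2574 to 2853 under PRMT5i and 2295 to 2443 in the combination. None of the listed markers of B cells (5) or megakaryocytes (4) averaged 1 CPM, and PF4 and PPBP were at 0 in every library. Of the T and NK cell markers 2 of 7 averaged at least 1 CPM, and CD2 was at 0. Markers of epithelial cells and fibroblasts (2 of 8 at 1 CPM or more) summed to 12.2 to 18.1 CPM in DMSO, 19.7 to 32 under EZH2i, 19.8 to 21.4 under PRMT5i and 26.3 to 29.4 in the combination, and their part in the results was not tested. In bulk RNA, fewer cells of a kind and less RNA per cell cannot be told apart.

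A LINC symbol marks a transcript from between coding genes, and an antisense symbol marks one from the strand opposite a coding gene. Many antisense genes start beside the coding gene's own start and run away from it, so that 1 promoter region fires in both directions; newer nomenclature calls these divergent transcripts (-DT). Some long noncoding RNAs act as RNA, such as NORAD (LINC00657), which binds Pumilio proteins, or cyrano (OIP5-AS1), which directs the decay of a microRNA. Others are spliced hosts of small nucleolar RNAs, and some so-called noncoding transcripts were later found to encode small proteins.

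In the GENCODE release 29 annotation of GRCh38, 256 of the 258 members had an entry. Antisense was the gene type of 127, lincRNA of 72, processed transcript of 34 and bidirectional promoter RNA of 3, while 9 were listed as protein-coding and 9 as transcribed pseudogenes. The summed exon length ranged from 449 to 20654 bases, with a median of 3753 bases for LINC members and 3657.5 bases for antisense members. The annotated start of 116 members lay within 1 kb of the start of a coding gene on the opposite strand, of which 105 had an antisense symbol. Exons of 160 members shared bases with a gene on the opposite strand, in 43 of them for at least 20% of the exon length and in 9 for at least 50%, and 4 shared at least 20% with a gene on their own strand. The sources used here give no strand setting for the library kit or the counting, so reads from such shared bases cannot be assigned to one gene or the other with certainty.

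The promoters of the members held more CG dinucleotides, the sites of DNA methylation, than those of RefSeq genes at large, a set not chosen by level. RefSeq windows of 300 bases (250 before to 50 after the start, GRCh38.p14) were matched for 190 of the 258 members. The CG motif, which reads the same on both strands, occurred a median of 24 times per window (quartiles 14 and 34) among the members. Among all 27305 genes with a RefSeq window the median was 14 (quartiles 3 and 28), and 95.8% held at least 1. These genes were not limited to the count table or to a level, and their first listed start was used. For members the window nearest the GENCODE start was used, so the sets compared are not alike. Members that start within 1 kb of an opposite coding start had a median of 29, and the others 19. Windows of members that rose with PRMT5i had a median of 26, those that fell 27 and those that did not pass the test 22.5. Windows of 5 members described below are shown to let this range be read: LINC00900, NUP50-AS1 (RefSeq NUP50-DT) and ZNF436-AS1, which fell with PRMT5i; BAIAP2-AS1 (RefSeq BAIAP2-DT), which rose with it; and LINC00996, which fell with EZH2i. Capitals mark each CG, the sequence runs 5′ to 3′ on the strand of the RNA, and the NUP50-AS1 window is restricted to the 109 bases that hold no coding exon.
LINC00900, chr11:115760151-115760450, minus strand, 24 CG: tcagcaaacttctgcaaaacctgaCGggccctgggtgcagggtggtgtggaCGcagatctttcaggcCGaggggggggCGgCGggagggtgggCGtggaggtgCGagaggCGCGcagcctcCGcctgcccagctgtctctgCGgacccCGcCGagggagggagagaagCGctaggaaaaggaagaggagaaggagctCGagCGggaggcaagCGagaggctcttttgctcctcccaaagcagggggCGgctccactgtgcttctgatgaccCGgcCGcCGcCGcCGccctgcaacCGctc
NUP50-AS1, chr22:45163732-45163840, minus strand, 19 CG: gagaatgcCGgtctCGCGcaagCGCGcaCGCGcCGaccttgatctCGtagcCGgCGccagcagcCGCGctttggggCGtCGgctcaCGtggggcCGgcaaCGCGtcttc
ZNF436-AS1, chr1:23368721-23369020, plus strand, 29 CG: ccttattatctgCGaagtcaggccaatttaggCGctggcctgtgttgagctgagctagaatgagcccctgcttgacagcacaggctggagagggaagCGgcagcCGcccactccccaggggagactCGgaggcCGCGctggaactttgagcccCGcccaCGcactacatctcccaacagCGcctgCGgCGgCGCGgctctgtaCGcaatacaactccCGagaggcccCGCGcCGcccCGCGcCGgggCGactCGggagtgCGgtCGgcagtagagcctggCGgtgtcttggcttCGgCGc
BAIAP2-AS1, chr17:81034670-81034969, minus strand, 33 CG: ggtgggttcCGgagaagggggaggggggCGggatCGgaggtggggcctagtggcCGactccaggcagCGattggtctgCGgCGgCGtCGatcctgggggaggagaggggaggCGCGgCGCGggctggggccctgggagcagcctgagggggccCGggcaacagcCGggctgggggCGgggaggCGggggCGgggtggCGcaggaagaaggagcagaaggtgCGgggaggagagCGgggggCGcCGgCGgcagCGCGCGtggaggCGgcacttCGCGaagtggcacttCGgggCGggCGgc
LINC00996, chr7:150433404-150433703, plus strand, 3 CG: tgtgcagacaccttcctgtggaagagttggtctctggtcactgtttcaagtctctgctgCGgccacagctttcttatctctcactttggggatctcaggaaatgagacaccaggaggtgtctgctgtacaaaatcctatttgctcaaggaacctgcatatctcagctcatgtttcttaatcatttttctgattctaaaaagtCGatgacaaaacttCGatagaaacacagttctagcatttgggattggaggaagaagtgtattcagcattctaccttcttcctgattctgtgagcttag
The intergenic LINC00996 window held 3 CG, fewer than the lower quartile of the members, while the divergent BAIAP2-AS1 and the antisense ZNF436-AS1 windows held 33 and 29. The RefSeq start of LINC00900 lies 427 bases from its GENCODE start, that of BAIAP2-AS1 162 bases and that of ZNF436-AS1 26 bases, and those of NUP50-AS1 and LINC00996 coincide with it.

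A few members stood far above the rest in level. Here and below, CPM values use library sizes scaled by edgeR's TMM factors (a trimmed mean of log ratios between libraries), and levels are compared between genes only per kilobase (kb) of exon. LRRC75A-AS1, a host of small nucleolar RNAs now named SNHG29, was the highest at 367 CPM per kb, as a mean over the 16 libraries. LINC00657 (NORAD) followed at 54.2 CPM per kb, then LINC00493 at 49.2 and LINC00998 at 40.4, which encode the small membrane proteins SMIM26 and SMIM30. OIP5-AS1 stood at 23.5 CPM per kb, FGD5-AS1 at 14.4, NCBP2-AS2 at 12.7, CARD8-AS1 at 11.3, EPB41L4A-AS1 at 10.5 and LINC00926 at 9.90. EPB41L4A-AS1 shares 49.6% of its exon bases with EPB41L4A on the other strand. The summed level of all 258 members was 3261 to 4110 CPM in the DMSO libraries and 3169 to 3743 under EZH2i. It was 3506 to 3652 under PRMT5i and 3232 to 3464 in the combination. These ranges overlapped for every pair of groups except PRMT5i and the combination. DMSO replicates 1, 3 and 4, at 3832 to 4110 CPM, lay above every treated library, so the overlaps of DMSO rested on replicate 2 (3261 CPM). Without the 3 members with the highest counts, PRMT5i (1545 to 1576 CPM) and the combination (1522 to 1550 CPM) overlapped as well.

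The 3 members with the highest counts varied widely among the DMSO libraries. LRRC75A-AS1 stood at 1557, 1279, 1561 and 1646 CPM in DMSO replicates 1 to 4, 1253, 1309, 1439 and 1404 under EZH2i, 1421, 1364, 1395 and 1457 under PRMT5i and 1258, 1109.8, 1286 and 1333 in the combination. It was lower in the combination than in DMSO (−0.28 ± 0.09 log2, SE, adjusted p = 0.0203), with overlapping ranges, and the call ended without DMSO replicate 4 or without combination replicate 2 (highest adjusted p 0.0713). LINC00657 stood at 299, 215, 298 and 305 CPM in DMSO, 199.7, 283, 232 and 312 under EZH2i, 322, 332, 296 and 327 under PRMT5i and 308, 299.6, 294 and 310.0 in the combination. None of its comparisons passed the threshold, and its spread was wider in the DMSO and EZH2i groups than in the PRMT5i and combination groups. OIP5-AS1 followed the same layout, at 239 to 359 CPM in DMSO, 235 to 384 under EZH2i, 269.9 to 292 under PRMT5i and 255 to 280.0 in the combination, and passed in no comparison either. LINC00926, also among the 10 highest per kb, rose from 30.8 ± 2.03 CPM in DMSO to 42.8 ± 4.68 under PRMT5i and 41.5 ± 3.30 in the combination (SD, n = 4; 0.48 ± 0.09 and 0.43 ± 0.09 log2, adjusted p = 0.000681 and 0.00166), and every library of these 2 groups lay above every DMSO library. Over all 258 members, DMSO replicate 2 held the highest of the 4 DMSO values for 78 and the lowest for 91, replicate 3 for 34 and 53, replicate 4 for 36 and 43, and replicate 1 for 110 and 71. The latter library's TMM factor of 0.861 was the lowest of the 16, and the other 15 ranged from 0.959 to 1.07.

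PRMT5 inhibition changed many of these RNAs in both directions, and EZH2 inhibition few. With PRMT5i against DMSO, 45 of the 258 members were higher and 57 lower by edgeR's quasi-likelihood test (Benjamini-Hochberg adjusted p under 0.05 among 16555 genes). That is 39.5% of the members, beside 35.3% of all genes tested (17.1% higher, 18.3% lower). With EZH2i, 6 were higher and 8 lower, 5.43% of the members beside 7.6% of all genes (4.11% higher, 3.49% lower). The combination against DMSO gave 35 higher and 61 lower, 37.2% of the members beside 36.2% of all genes (17.6% higher, 18.5% lower). The combination against PRMT5i gave 7 higher and 6 lower, 5.04% of the members beside 4.16% of all genes (2.91% higher, 1.24% lower). The members' share differed from the background by a few percentage points at most in each of the 4 comparisons. Groups that did not overlap at all were counted as well, whatever the p. With PRMT5i, 47 members lay wholly above DMSO and 55 wholly below, beside 16.6% and 17.2% of all genes. With EZH2i these counts were 6 and 16, beside 5.48% and 5.1% of all genes, in the combination 35 and 59, beside 16.7% and 16.4%, and for the combination against PRMT5i 19 and 23, beside 10.2% and 8.79%. The median log2 fold change of the members was −0.06 for EZH2i, −0.07 for PRMT5i, −0.05 in the combination and −0.02 for the combination against PRMT5i, beside −0.01, −0.00, 0.00 and −0.00 over all genes tested. The first 3 of these comparisons share the 4 DMSO libraries.

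**Figure D1:**
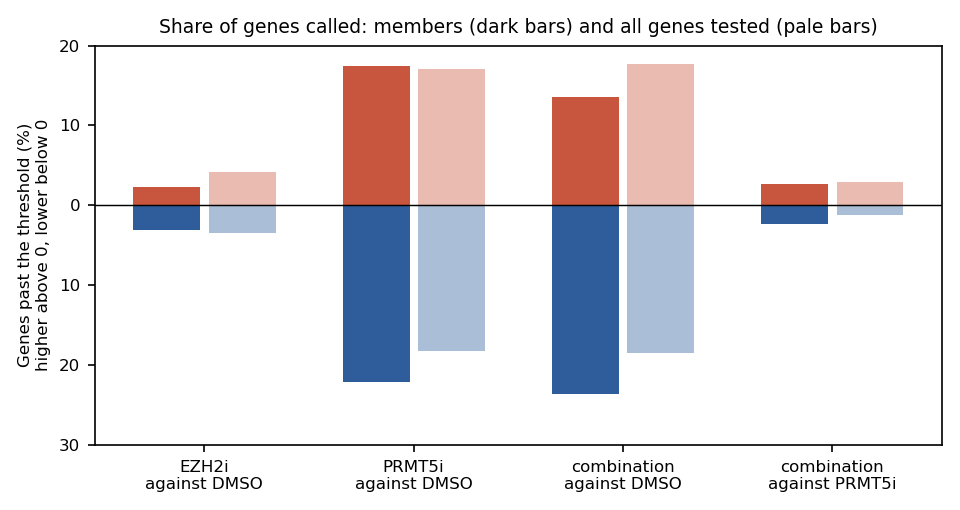
Percent of members (dark bars, n = 258) and of all genes tested (pale bars, n = 16555) past an edgeR adjusted p of 0.05, higher above the zero line in red and lower below it in blue, for 4 comparisons. In the combination the dark bar is shorter above zero and longer below it than the pale bar, a difference that was not tested, and with EZH2i both bars are short.

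The counts of higher and lower calls in the combination depended on how libraries were scaled. With total counts in place of TMM factors, the median log2 fold change of all genes moved to 0.13 in the combination, and 54 members were called higher and 42 lower (20.9% and 16.3%, beside 23.5% and 12.2% of all genes). All genes moved likewise, so under both scalings a smaller share of the members than of all genes was higher and a larger share was lower. That difference of a few percentage points was not tested, and both scalings use the same libraries. The same scaling gave 9 higher and 1 lower with EZH2i (beside 5.16% and 1.75% of all genes), where the median of all genes moved to 0.09, and 50 higher and 50 lower with PRMT5i (beside 18.3% and 15.5%). LINC and antisense members had similar shares past the threshold with PRMT5i, 32 of 77 (16 higher, 16 lower) and 70 of 181 (29 higher, 41 lower). Of the 116 members that start within 1 kb of an opposite coding start, 18 were higher and 27 lower with PRMT5i, and of the other 142 members 27 were higher and 30 lower. Among the 45 members with at least 20% exon overlap 9 were higher and 14 lower, and among the 211 with less overlap 35 were higher and 43 lower. None of these differences between subsets was tested.

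With PRMT5i, 5 members rose by at least 1 on the log2 scale (4.91% of all genes tested did), and AFAP1-AS1 rose the most. Of the 223 members that averaged at least 1 CPM in every treatment, 2 did so, and AFAP1-AS1, LIPE-AS1 and LINC00861 are not among these. AFAP1-AS1 and LIPE-AS1 reached the level threshold through the libraries with PRMT5i. LINC00861 averaged under 1 CPM in DMSO before TMM scaling, the form of CPM that the rule uses. AFAP1-AS1 (chr4:7754090-7778928, plus strand, antisense to the actin filament gene AFAP1 and known for high levels in several carcinomas) stood at 0.250, 0.998, 0.713 and 0.651 CPM in DMSO replicates 1 to 4 and at 0.663 to 0.969 with EZH2i. It reached 2.66, 3.83, 3.69 and 3.75 CPM with PRMT5i and 3.52, 3.62, 3.21 and 3.17 in the combination. All 8 libraries with PRMT5i lay above all 8 without it, and the change was 2.42 ± 0.25 log2 (SE, adjusted p = 1.57e-06) with PRMT5i and 2.38 ± 0.25 (adjusted p = 2.95e-06) in the combination. Its partner AFAP1 averaged 0.232 ± 0.123 CPM (SD, n = 4) in DMSO and 0.340 ± 0.176 with PRMT5i, a difference that did not pass (0.57 log2, adjusted p = 0.325). In the combination AFAP1 averaged 0.518 ± 0.179 CPM and was called higher than in DMSO (1.18 log2, adjusted p = 0.0343). With EZH2i AFAP1 averaged 0.564 ± 0.160 CPM and did not pass (1.30 log2, adjusted p = 0.0642). LIPE-AS1 (chr19:42397128-42652355, plus strand), named after the hormone-sensitive lipase gene, stood at 0.859, 0.624, 1.0 and 0.849 CPM in DMSO, 2.02, 2.20, 2.10 and 1.72 under PRMT5i and 1.46, 1.59, 1.48 and 1.07 in the combination. Its PRMT5i libraries all lay above the DMSO libraries (1.26 ± 0.17 log2, adjusted p = 2.24e-05).

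BAIAP2-AS1 (chr17:81029130-81034881, minus strand) starts 241 bases from the start of BAIAP2, which encodes a scaffold between the membrane and actin, and its promoter is among those printed above. It stood at 3.99, 7.48, 6.80 and 6.12 CPM in DMSO, 7.97, 7.07, 5.74 and 6.17 under EZH2i, 13.0, 13.8, 14.3 and 13.3 under PRMT5i and 9.13, 7.83, 8.86 and 8.10 in the combination. The 4 PRMT5i libraries lay above all others, and the combination libraries lay between them and DMSO without overlap with either. The rise was 1.16 ± 0.15 log2 with PRMT5i (adjusted p = 1.36e-05) and 0.48 ± 0.15 in the combination (adjusted p = 0.0202). The combination call ended without combination replicate 1 (adjusted p = 0.0559), and its size was 0.31 without DMSO replicate 1. LINC00899 (chr22:46039907-46044853, minus strand) had the same layout, at 9.05 to 9.66 CPM in DMSO, 6.03 to 8.98 under EZH2i, 16.8 to 18.1 under PRMT5i and 10.9 to 13.6 in the combination, with no overlap between any 2 of the 4 groups (0.88 ± 0.10 log2 with PRMT5i, adjusted p = 6.07e-06). LINC00861 stood at 1.36, 1.06, 0.891 and 0.849 CPM in DMSO, 2.48, 2.72, 1.70 and 2.16 under PRMT5i and 3.14, 3.39, 2.11 and 2.40 in the combination. All 8 of its libraries with PRMT5i exceeded the 4 DMSO libraries (1.14 ± 0.26 and 1.42 ± 0.26 log2, adjusted p = 0.00245 and 0.000425).

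Of the 9 members that GENCODE lists as protein-coding, 5 rose with PRMT5i and 0 fell, beside 17.1% and 18.3% of all genes tested. LINC01420 encodes NBDY, a micropeptide of the mRNA decapping complex, and stood at 2.88, 4.83, 4.03 and 3.61 CPM in DMSO, 5.09, 4.82, 3.83 and 4.36 under EZH2i, 7.58, 9.18, 8.03 and 9.42 under PRMT5i and 8.07, 6.42, 7.22 and 7.47 in the combination. Every library with PRMT5i lay above every library without it (1.16 ± 0.14 log2 with PRMT5i, adjusted p = 8.64e-06, and 0.93 ± 0.14 in the combination, adjusted p = 9.42e-05). MMP24-AS1 (now MMP24OS) rose by 0.78 with PRMT5i (adjusted p = 0.0126), FAM83H-AS1 (IQANK1) by 0.57 (adjusted p = 0.0239), NCBP2-AS2 by 0.50 (adjusted p = 0.000315) and LINC00094 (BRD3OS) by 0.34 (adjusted p = 0.00711). The FAM83H-AS1 call ended without DMSO replicate 1 or 4 or PRMT5i replicate 2 or 3, with adjusted p up to 0.0651. LINC00094 shares 21.4% of its exon bases with BRD3, so its value is uncertain. LINC00116 (MTLN, a peptide of the mitochondrial inner membrane), LINC00493, LINC00998 and TOPORS-AS1 (SMIM27) did not pass, with log2 fold changes of −0.20, −0.01, −0.25 and 0.28. The 9 were grouped by annotation after their values were seen.

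**Figure D2:**
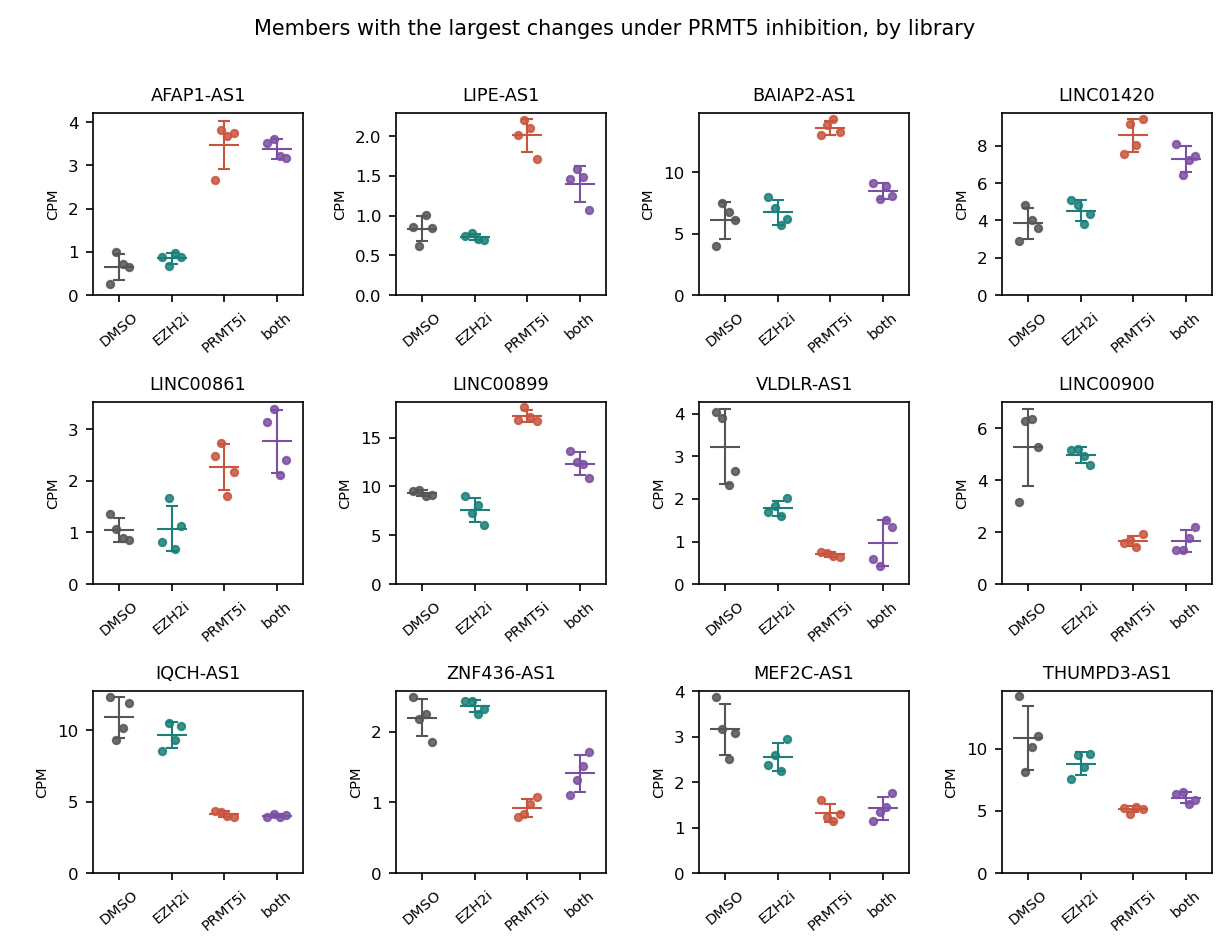
CPM (linear axes from 0) of the 12 members with the largest changes with PRMT5i against DMSO among those named by rule, 1 panel per member. Each point is 1 library, the long bar is the mean and the whiskers are 1 SD (n = 4 per group; "both" is the combination). In every panel the PRMT5i libraries lie wholly above or wholly below the DMSO libraries.

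On the lower side, 9 members fell by at least 1 on the log2 scale with PRMT5i (4.54% of all genes tested did), led by VLDLR-AS1. Of the 223 members at 1 CPM or more in every treatment 6 did so, and VLDLR-AS1 and ZNF436-AS1 are among those left out. VLDLR-AS1 (chr9:2421597-2643359, minus strand, antisense to the lipoprotein receptor gene VLDLR) stood at 4.05, 3.90, 2.32 and 2.64 CPM in DMSO and 1.70, 1.83, 1.60 and 2.01 with EZH2i. It dropped to 0.760, 0.739, 0.653 and 0.646 CPM with PRMT5i and 0.597, 0.415, 1.51 and 1.35 in the combination, below every DMSO library. The change was −2.19 ± 0.31 log2 (adjusted p = 3.73e-05) with PRMT5i and −1.75 ± 0.31 (adjusted p = 0.0003) in the combination, and the EZH2i libraries also lay below all DMSO libraries without passing (−0.85 ± 0.29, adjusted p = 0.0833). LINC00900 (chr11:115754248-115760627, minus strand) stood at 3.16, 6.27, 6.35 and 5.27 CPM in DMSO, 5.17, 5.20, 4.93 and 4.57 under EZH2i, 1.60, 1.69, 1.45 and 1.91 under PRMT5i and 1.31, 1.32, 1.78 and 2.20 in the combination. DMSO replicate 1 was the lowest of the 8 libraries without PRMT5i and still lay above the 8 with it (−1.66 ± 0.21 and −1.68 ± 0.21 log2, adjusted p = 9.41e-06 and 1.2e-05). IQCH-AS1 (chr15:67403619-67521844, minus strand) starts 776 bases from C15orf61 and showed the smallest adjusted p of the 258 members with PRMT5i. Its values were 12.3, 9.29, 10.2 and 11.9 CPM in DMSO, 8.54, 10.5, 9.30 and 10.3 under EZH2i, 4.34, 4.30, 4.01 and 3.90 under PRMT5i and 3.91, 4.15, 3.95 and 4.08 in the combination. The PRMT5i and combination libraries were tightly grouped and well under the rest (−1.40 ± 0.10 and −1.44 ± 0.10 log2, adjusted p = 4.4e-08 and 6.92e-08).

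MEF2C-AS1 (chr5:88883328-89466398, plus strand) lies antisense to MEF2C, a transcription factor of myeloid progenitors and MLL leukaemia. It stood at 3.88, 3.18, 2.52 and 3.08 CPM in DMSO, 2.38, 2.59, 2.25 and 2.96 under EZH2i, 1.62, 1.25, 1.14 and 1.29 under PRMT5i and 1.16, 1.34, 1.45 and 1.76 in the combination. The antisense RNA fell with PRMT5i (−1.25 ± 0.17 log2, adjusted p = 2.54e-05), while MEF2C itself differed by −0.10 ± 0.13 (adjusted p = 0.618); the difference between the pair was not tested. With EZH2i, MEF2C fell (−0.56 ± 0.13, adjusted p = 0.0196) and MEF2C-AS1 differed in the same direction without passing (−0.31 ± 0.17, adjusted p = 0.236). ZNF436-AS1 fell from 2.5, 2.18, 2.25 and 1.85 CPM in DMSO to 0.800, 0.837, 0.980 and 1.07 with PRMT5i, and stood at 1.10, 1.32, 1.51 and 1.71 in the combination. Its 3 groups did not overlap (−1.25 ± 0.16 log2 with PRMT5i, adjusted p = 1.28e-05, and −0.65 ± 0.16 in the combination, adjusted p = 0.00414). THUMPD3-AS1, beside a tRNA methyltransferase gene, fell by 1.08 with PRMT5i and by 0.84 in the combination (adjusted p = 1.15e-05 and 0.000161). LINC00662, at 33.7, 24.6, 29.5 and 32.2 CPM in DMSO one of the more abundant LINC members, fell to 14.2, 13.9, 14.5 and 15 with PRMT5i (−1.06 ± 0.13 log2, adjusted p = 9.92e-06). The other 2 past 1 on the log2 scale were NUP50-AS1 (−1.07) and LINC01572 (−1.31).

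**Figure D3:**
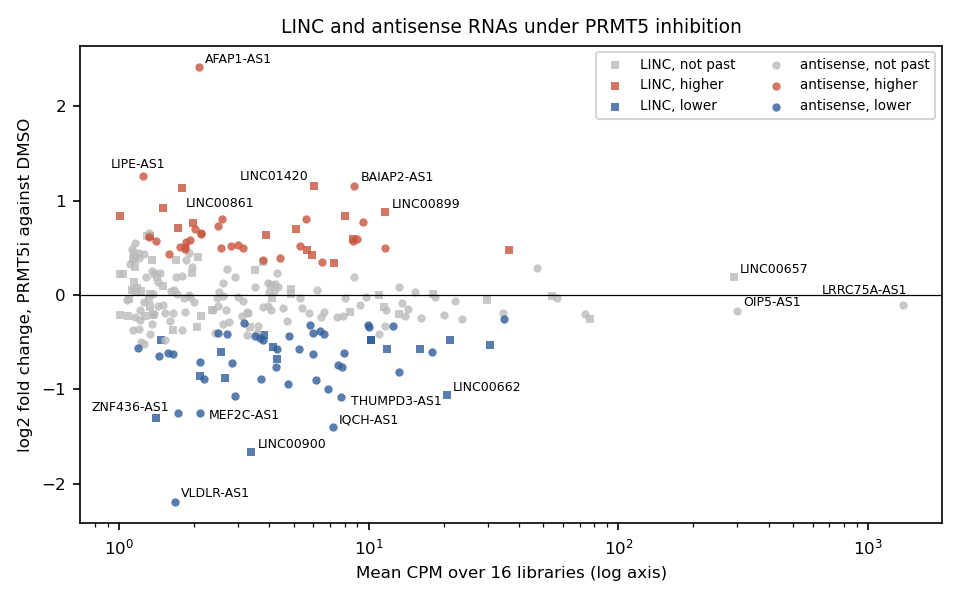
Log2 fold change with PRMT5i against DMSO (vertical axis) by mean CPM over the 16 libraries (horizontal log axis) for the 258 members, squares for LINC and circles for antisense symbols, red for higher and blue for lower past an edgeR adjusted p of 0.05. Changes past 1 in either direction lie among members of at most 20.5 CPM, and LINC00657, OIP5-AS1 and LRRC75A-AS1 lie near 0 at the right.

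With EZH2i alone, 6 members rose and 8 fell. RUSC1-AS1 (chr1:155316863-155324176, minus strand; 19.7% of its exon bases are shared with FDPS) rose the most. It stood at 2.25, 3.37, 2.90 and 3.43 CPM in DMSO and 5.80, 5.73, 5.14 and 5.43 under EZH2i, at 3.16, 3.19, 2.17 and 2.51 under PRMT5i and 5.72, 4.52, 3.92 and 4.02 in the combination. Each of the 8 libraries with EZH2i lay above each of the 8 without it. The change was 0.89 ± 0.16 log2 with EZH2i against DMSO (adjusted p = 0.00434) and 0.72 ± 0.16 in the combination against PRMT5i (adjusted p = 0.0177), a comparison that shares no library with the first. TRHDE-AS1 (chr12:72253508-72274907, minus strand), beside a gene for a hormone-degrading peptidase, stood at 3.60, 3.96, 3.10 and 3.04 CPM in DMSO, 4.96, 5.24, 4.27 and 5.57 under EZH2i, 4.00, 3.62, 3.31 and 3.53 under PRMT5i and 5.45, 6.05, 4.83 and 4.71 in the combination. All 8 libraries with EZH2i again lay above the 8 without it (0.55 ± 0.13 log2, adjusted p = 0.0149, and 0.54 ± 0.12 on top of PRMT5i, adjusted p = 0.0195). LINC00969 rose by 0.30 (adjusted p = 0.0363), LINC01138 by 0.46 (0.0398) and LINC00869 by 0.50 (0.0413), and the last 2 overlapped DMSO in range.

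LINC00996 fell the most with EZH2i, but no treatment group averaged 2 CPM, so it lay outside the rule for named members and was chosen after its values were seen. It averaged under 1 CPM in both groups with EZH2i and reached the level threshold through the DMSO and PRMT5i libraries. Of the 223 members at 1 CPM or more in every treatment, 0 fell by at least 1 on the log2 scale with EZH2i. It stood at 1.58, 1.15, 1.92 and 1.74 CPM in DMSO, 0.821, 0.563, 0.786 and 0.546 under EZH2i, 1.42, 1.54, 1.38 and 1.17 under PRMT5i and 1.0, 0.692, 0.439 and 0.579 in the combination. The EZH2i libraries lay below all DMSO libraries and the combination libraries below all PRMT5i libraries (−1.24 ± 0.24 log2, adjusted p = 0.00605, and −1.0 ± 0.24, adjusted p = 0.0239). INHBA-AS1, antisense to the gene of the activin beta A subunit, stood at 8.57, 7.05, 6.37 and 6.28 CPM in DMSO and 5.07, 4.88, 4.22 and 5.37 with EZH2i. It fell with EZH2i (−0.53 ± 0.13 log2, adjusted p = 0.0204) and by a like amount with PRMT5i (−0.57 ± 0.13, adjusted p = 0.00219). LINC00662 fell by 0.50 (adjusted p = 0.0279), PSMB8-AS1 by 0.37 (0.0212) and LINC00116 by 0.36 (0.0473), with no library overlapping DMSO. PSMB8-AS1 shares 31.7% of its exon bases with the immunoproteasome gene PSMB8. LINC00205, ASH1L-AS1 and CARD8-AS1 fell by 0.74, 0.59 and 0.54 (adjusted p = 0.0421, 0.0216 and 0.0353).

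Only LINC00996 and RUSC1-AS1 of the 14 members called with EZH2i passed in each of the 8 fits that left out 1 library. Leaving out DMSO replicate 4 ended 11 of the 14 calls (1 higher and 2 lower then passed), EZH2i replicate 1 ended 9, DMSO replicate 3 ended 8, DMSO replicate 1 and EZH2i replicate 2 ended 7 each, EZH2i replicate 3 ended 6 and EZH2i replicate 4 ended 5. Leaving out DMSO replicate 2 ended none and brought the counts to 18 higher and 31 lower (6.98% and 12% of the members), as it did for all genes (13.5% and 13.7%). All 14 had the same sign within replicates 1 and 2 and within replicates 3 and 4. The 14 were called from these same libraries, so the agreement is no separate support for them.

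**Figure D4:**
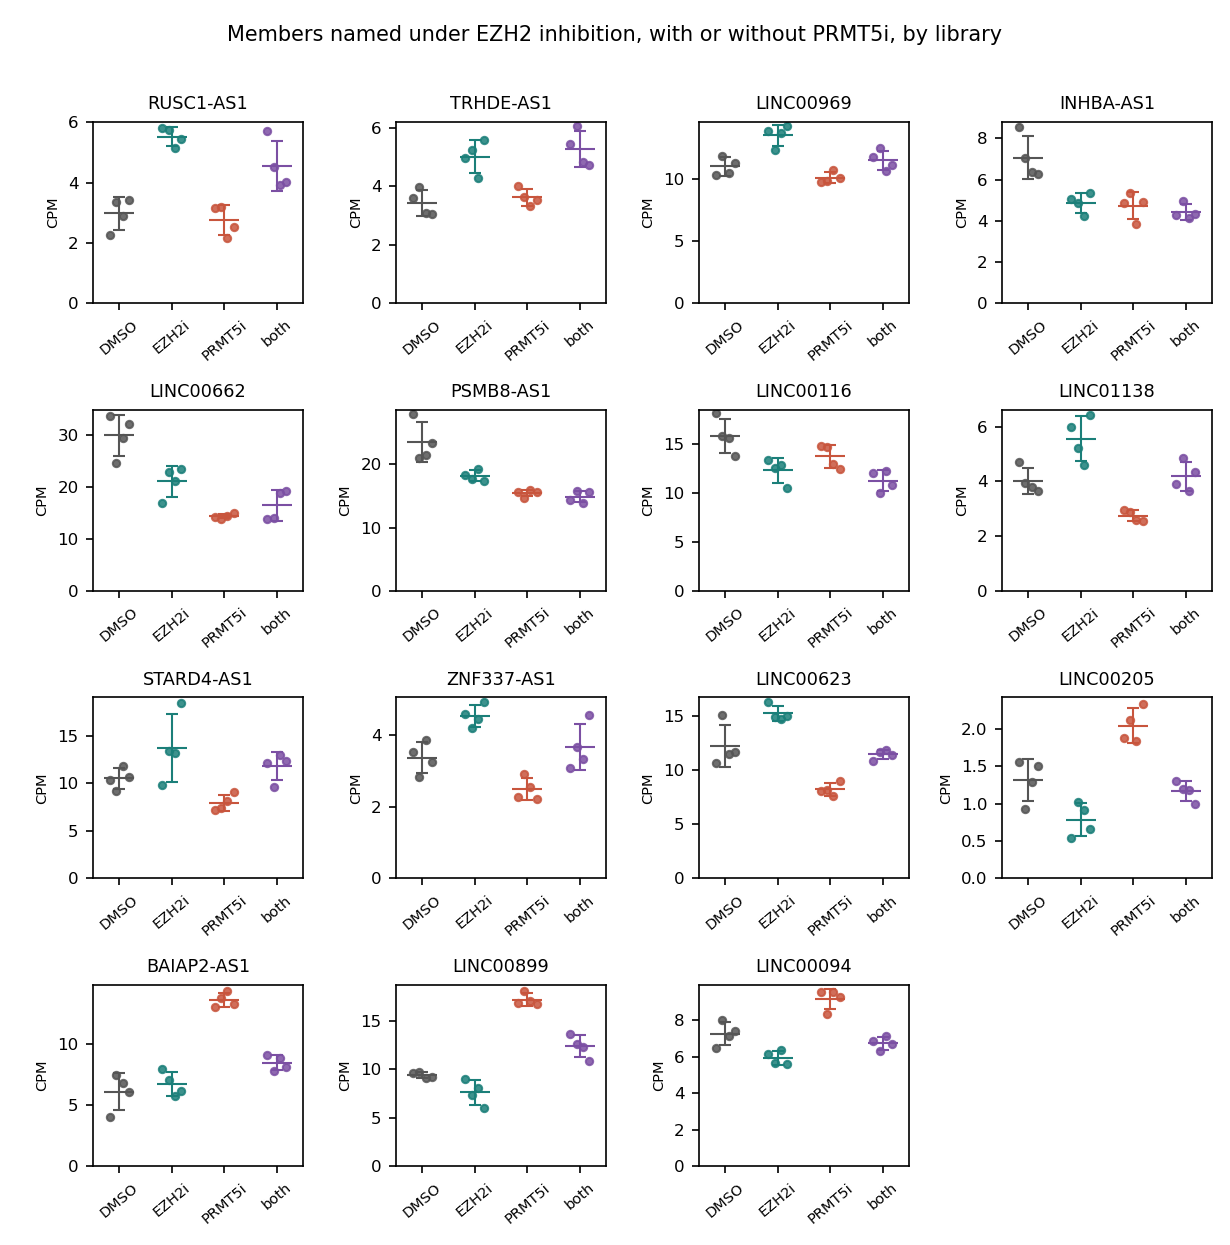
CPM (linear axes from 0) of the members named by rule for EZH2i against DMSO or for the combination against PRMT5i, 1 panel per member. Each point is 1 library, the long bar is the mean and the whiskers are 1 SD (n = 4 per group; "both" is the combination). RUSC1-AS1 and TRHDE-AS1 are higher in both groups with EZH2i, and BAIAP2-AS1 and LINC00899 are highest with PRMT5i alone.

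In the combination against DMSO, 35 members rose and 61 fell, and the 5 largest changes were those of AFAP1-AS1, VLDLR-AS1, LINC00900, LINC01602 and IQCH-AS1. Past the threshold, 4 of the 258 members rose and 8 fell by at least 1 on the log2 scale. Of all 16555 genes tested, 925 rose and 517 fell by that much. Of the 223 members at 1 CPM or more in every treatment, 0 rose and 5 fell by that much. Rises of that size, such as those of AFAP1-AS1, LINC01602 and LINC00861, thus came only from members under 1 CPM in some treatment. LINC01602 stood at 1.28, 0.281, 0.891 and 1.07 CPM in DMSO, 0.575, 0.703, 0.707 and 1.06 under EZH2i, 1.74, 1.87, 1.38 and 1.76 under PRMT5i and 2.5, 2.08, 2.88 and 3.20 in the combination. Its combination libraries lay above all others (1.58 ± 0.29 log2 against DMSO, adjusted p = 0.000527), and the rise with PRMT5i alone was 0.92 ± 0.30 (adjusted p = 0.0223). The difference between combination and PRMT5i did not pass (0.65 ± 0.28, adjusted p = 0.248). The PRMT5i call ended without PRMT5i replicate 2, at 0.65 to 1.11 over the 8 omissions and an adjusted p of up to 0.0661. MMP24-AS1 rose by 0.83 (adjusted p = 0.00835) and AQP4-AS1 by 0.81 (0.0104). On the lower side NUP50-AS1 fell by 1.31 (adjusted p = 4.77e-05) and MAFG-AS1, which starts 115 bases from the gene of the small MAF transcription factor MAFG, by 1.12 (5.69e-05). MAFG-AS1 stood at 6.32, 6.05, 4.77 and 4.26 CPM in DMSO and 2.85, 2.61, 2.03 and 2.31 in the combination, with no overlap. LINC00963 was an abundant LINC member, picked after its values were seen, and fell from 38.4 ± 2.89 CPM (SD, n = 4) in DMSO to 26.5 ± 1.69 under PRMT5i and 23.0 ± 2.41 in the combination (adjusted p = 0.00018 and 9.79e-06).

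HOXA-AS3, from the HOXA cluster that drives MLL leukaemia, was the only member named after a HOX gene. It stood at 1.69, 3.30, 2.79 and 1.97 CPM in DMSO, 3.29, 3.11, 2.25 and 2.33 under EZH2i, 2.70, 2.98, 3.01 and 2.39 under PRMT5i and 3.99, 4.13, 3.21 and 3.36 in the combination. It rose in the combination (0.60 ± 0.19 log2, adjusted p = 0.0233) with overlapping ranges and passed in no other comparison. The call ended without DMSO replicate 1 or 4 or combination replicate 1 or 2 (adjusted p up to 0.0778), and 25.3% of its exon bases are shared with HOXA7.

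Adding EZH2i to PRMT5i raised 7 members and lowered 6. LINC01138, at 2.56 to 2.94 CPM with PRMT5i and 3.65 to 4.85 in the combination (0.61 ± 0.13 log2, adjusted p = 0.0152), stood at 3.65 to 4.71 in DMSO. ZNF436-AS1 (0.61, adjusted p = 0.0455), LINC00623 (0.48, 0.0124) and ZNF337-AS1 (0.55, 0.0362) had likewise fallen with PRMT5i, by 1.25, 0.57 and 0.44. STARD4-AS1, beside a sterol transport gene, sat at the threshold (0.57 ± 0.16, adjusted p = 0.05), and its PRMT5i value of −0.41 did not pass (adjusted p = 0.0515). ZNF337-AS1 shares 53.2% of its exon bases with ZNF337. Of the 6 lowered members, LINC00205 stood at 1.88, 2.12, 1.84 and 2.34 CPM with PRMT5i and 1.31, 1.20, 1.18 and 0.992 in the combination, without overlap (−0.80 ± 0.20 log2, adjusted p = 0.0307). LINC01137, which starts 141 bases from the RNase gene ZC3H12A, stood at 1.92, 1.56, 1.94 and 1.96 CPM with PRMT5i and 1.04, 0.993, 1.29 and 1.16 in the combination (−0.72 ± 0.14 log2, adjusted p = 0.0093). BAIAP2-AS1 (−0.68, adjusted p = 0.014), LINC00899 (−0.48, 0.0148) and LINC00094 (−0.45, 0.00931) had all risen with PRMT5i, and the sixth was LINC00996. The combination and PRMT5i contrasts share the PRMT5i libraries, so such opposite signs are given side by side only. LINC00094 and LINC01137 alone passed in each of the 8 fits without 1 library. Leaving out PRMT5i replicate 3 ended 10 of the 13 calls, PRMT5i replicate 4 and combination replicate 2 ended 7 each, combination replicate 4 ended 6, PRMT5i replicates 1 and 2 ended 5 each, and combination replicates 1 and 3 ended 4 each.

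No member passed for the interaction, the effect of EZH2i in the presence of PRMT5i minus its effect without it, by edgeR's quasi-likelihood test (0.29% of all genes passed, 0.254% higher and 0.0362% lower). At an unadjusted edgeR p under 0.05 there were 21 of the 258 members, beside 1489 of the 16555 genes tested. DESeq2 called 1 member, as lower, beside 0.643% of all genes higher and 0.203% lower. That 1 was BAIAP2-AS1, at −0.83 ± 0.21 log2 (edgeR adjusted p = 0.181; DESeq2 −0.82, adjusted p = 0.0206). EZH2i changed it by 0.14 alone and by −0.68 on top of PRMT5i. Without DMSO replicate 2 it passed by edgeR as well (adjusted p = 0.0418), and over 25 fits its adjusted p ranged from 0.0206 to 0.966. LINC00662 (0.70 ± 0.19, adjusted p = 0.223) and VLDLR-AS1 (1.28 ± 0.44, adjusted p = 0.387) passed with replicates 3 and 4 alone (adjusted p = 0.0177 and 0.0448).

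Antisense members were next set beside the gene whose name they carry. The partner was in the table for 178 antisense members and tested for 169. With PRMT5i both genes of 22 pairs passed: 6 pairs were higher together, 10 were lower together and 6 moved in opposite directions. In 11 of the 22 the starts lay within 1 kb (of 79 such pairs tested), and 10 of these 11 moved in 1 direction. In the other 11 the starts were farther apart (of 89 such pairs), and 6 of them moved in 1 direction and 5 in opposite directions. The antisense RNA alone passed in 45 pairs, the partner alone in 32 and neither in 70. Of the 169 partners 27 were higher and 27 lower with PRMT5i, beside 17.1% and 18.3% of all genes tested. Whether more pairs passed together than the separate rates of the antisense RNAs and the partners would give was not tested. Across the 169 pairs the log2 fold changes with PRMT5i had a Pearson r of 0.29 and a Spearman rho of 0.24, with 0.40 and 0.32 over the 79 pairs with near starts and 0.21 and 0.17 over the 89 with distant starts (the last pair had no annotated distance). These are correlations across genes measured in the same 8 libraries, which are not independent replicates, and the difference between near and distant pairs was not tested. In the 35 pairs with at least 20% exon overlap r was −0.01, beside 0.35 in the 133 with less.

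Among the pairs lower together, NUP50-AS1 starts 60 bases from NUP50, a protein of the nuclear pore basket, and shares none of its exon bases with a gene on the other strand. It stood at 5.21, 3.74, 4.23 and 4.83 CPM in DMSO, 2.04, 1.73, 2.43 and 2.39 under PRMT5i and 1.42, 2.01, 1.76 and 2.12 in the combination (−1.07 ± 0.18 and −1.31 ± 0.19 log2, adjusted p = 0.000226 and 4.77e-05). NUP50 averaged 136 ± 8.44 CPM (SD, n = 4) in DMSO, 79.9 ± 4.87 under PRMT5i and 92.6 ± 2.80 in the combination, and fell as well (−0.77 ± 0.07 and −0.56 ± 0.07, adjusted p = 4.15e-07 and 1.58e-05). TMPO-AS1, 910 bases from the start of the nuclear lamina gene TMPO, stood at 7.35, 7.33, 6.98 and 7.66 CPM in DMSO and 3.44, 4.46, 3.92 and 3.88 with PRMT5i. Both fell, the antisense RNA by 0.90 (adjusted p = 4.09e-06) and TMPO from 401 ± 123 to 184 ± 11.8 CPM (−1.13 ± 0.17, adjusted p = 7.42e-05), but 21.2% of the exon bases of TMPO-AS1 lie in TMPO. ZNF436 fell by 0.70 beside ZNF436-AS1 (adjusted p = 0.000227), 445 bases away. VLDLR, 21525 bases from the start of VLDLR-AS1, fell by 0.57 (adjusted p = 7.68e-05), a smaller change than that of its antisense RNA.

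Pairs higher together included BAIAP2-AS1 with BAIAP2 (0.69 ± 0.17, adjusted p = 0.00418) and ALOX12-AS1 (0.70 ± 0.16, adjusted p = 0.00301) with the lipoxygenase gene ALOX12 (1.29 ± 0.17, adjusted p = 1.55e-05). ALOX12-AS1 shares 15.3% of its exon bases with ALOX12, and reads from these bases cannot be assigned with certainty. The clearest pair in opposite directions was TTC28-AS1, whose start lies 760489 bases from that of TTC28. TTC28-AS1 stood at 11.8, 6.64, 9.29 and 8.47 CPM in DMSO, 4.50, 4.38, 4.41 and 4.85 under PRMT5i and 5.01, 4.85, 6.12 and 4.96 in the combination. The antisense RNA fell (−1.0 ± 0.15 and −0.79 ± 0.15 log2, adjusted p = 6.68e-05 and 0.000607) while TTC28 rose from 21.1 ± 6.17 to 39.5 ± 2.64 and 35.6 ± 2.09 CPM (0.91 ± 0.16 and 0.76 ± 0.16, adjusted p = 0.00026 and 0.00129). Each library of both treatments lay below each DMSO library for TTC28-AS1. LAMTOR5-AS1, SNAI3-AS1, TRAF3IP2-AS1 and ZNF561-AS1 also fell beside a partner that rose, and ZSCAN16-AS1 rose beside a partner that fell. On omission of 1 library the TRAF3IP2-AS1 call was lost in 6 of 8 fits (all but DMSO replicates 1 and 4; adjusted p up to 0.111) and also by the DESeq2 test. The ZSCAN16-AS1 call was lost without DMSO replicates 3 or 4 or PRMT5i replicates 1 or 4 (up to 0.0906), and the SNAI3-AS1 call without DMSO replicate 2 or PRMT5i replicate 4 (up to 0.0638). In the combination both genes of 19 pairs passed, 4 higher together, 10 lower together and 5 in opposite directions. Of the partners 29 were higher and 27 lower there, beside 17.6% and 18.5% of all genes, and the number of joint calls was not tested. There DHRS4-AS1 fell by 0.53 (adjusted p = 0.000283) beside the reductase gene DHRS4, which fell by 0.47 (adjusted p = 0.00142).

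**Figure D5:**
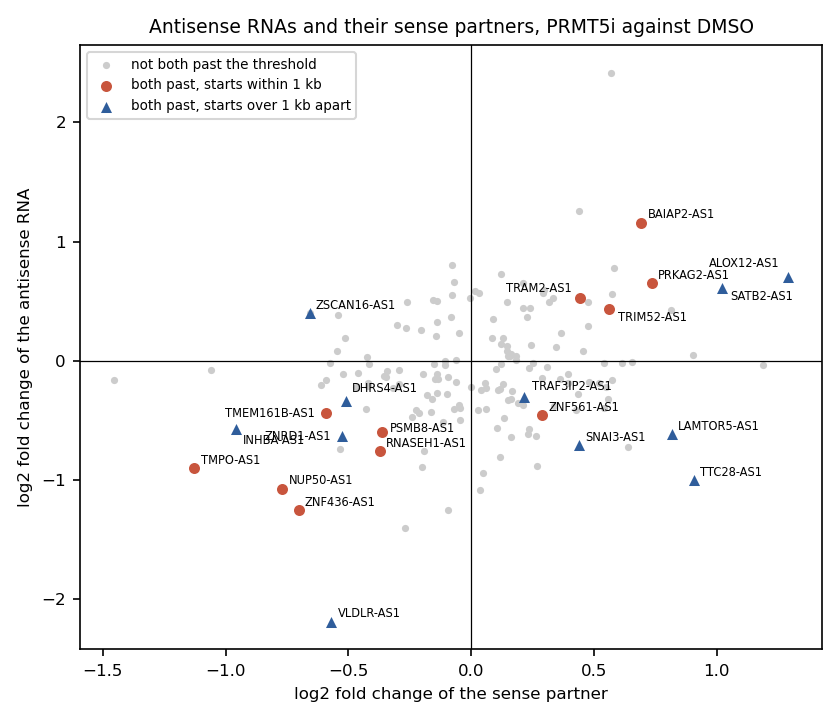
Log2 fold change with PRMT5i against DMSO of 169 antisense members (vertical axis) and of the partner gene each is named after (horizontal axis). Grey points are pairs in which at most 1 gene passed, red circles are pairs in which both passed with starts within 1 kb, and blue triangles are pairs in which both passed with starts farther apart. Of the 11 red circles 10 lie at lower left or upper right, where both genes moved in 1 direction, and 5 of the 11 triangles lie at upper left or lower right.

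With EZH2i, both genes passed in 1 pair, GATA2-AS1 and GATA2, the transcription factor of blood stem and progenitor cells. GATA2-AS1 stood at 7.46, 10.0, 7.15 and 6.87 CPM in DMSO, 13.9, 13.7, 12.4 and 8.27 under EZH2i, 5.04, 4.84, 4.53 and 4.37 under PRMT5i and 6.08, 5.17, 5.27 and 5.87 in the combination. EZH2i replicate 4 lay within the DMSO range, and the rise with EZH2i was 0.62 ± 0.15 log2 (adjusted p = 0.0204). GATA2 averaged 30.5 ± 14.7 CPM in DMSO and 79.7 ± 27.3 with EZH2i (1.39 ± 0.31, adjusted p = 0.0134). GATA2-AS1 fell with PRMT5i (−0.74 ± 0.15, adjusted p = 0.00119) and in the combination (−0.49 ± 0.15, adjusted p = 0.0198), where GATA2 did not pass (−0.53 and 0.39, adjusted p = 0.191 and 0.34). The EZH2i call was lost on omission of DMSO replicates 3 or 4, or EZH2i replicates 1 or 2 (adjusted p up to 0.0799), and the combination call without DMSO replicate 2 or combination replicate 2 or 3 (up to 0.0582). For the combination against PRMT5i and for the interaction, both genes passed in 0 pairs by edgeR.

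Long noncoding RNAs with other names were read as a companion list of 48, of which 44 were in the table under the listed symbol and 38 were tested. NORAD, CYTOR and SNHG29, also on the list, are members under their older symbols LINC00657, LINC00152 and LRRC75A-AS1 and are not counted here. With EZH2i 3 of the 38 were higher and 3 lower (7.6% of all genes passed), with PRMT5i 7 and 9 (35.3%), in the combination 10 and 10 (36.2%), and for the combination against PRMT5i 1 and 0 (4.16%). The SNHG genes, GAS5 and ZFAS1, hosts of small nucleolar RNAs, made up 17 of the 38, and 2 of these rose and 6 fell with PRMT5i. GAS5 averaged 706 CPM in DMSO and 462 with PRMT5i (−0.61 log2, adjusted p = 0.000887), SNHG7 fell by 0.99 (adjusted p = 4.54e-07) and SNHG19 rose by 1.08 (adjusted p = 7.44e-06). Among the members, the host LRRC75A-AS1 differed by −0.10 with PRMT5i (adjusted p = 0.403). EPB41L4A-AS1, another host, was lower (−0.25 ± 0.09, adjusted p = 0.0432), a call that was lost in 7 of the 8 fits without 1 library (all but the omission of DMSO replicate 2, adjusted p up to 0.109). NEAT1, the scaffold of nuclear paraspeckles, fell with PRMT5i (−0.62, adjusted p = 7.15e-05) and was higher in the combination than with PRMT5i (0.67, adjusted p = 0.00079), the direction of LINC01138 and LINC00623.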

How the data were processed

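RNA was measured in 16 MOLM-13 libraries, 4 per treatment, grouped by their titles. The authors deposited RSEM expected counts per gene, not scaled to depth; per the submitters' processing notes, reads were aligned with STAR 2.5.3 to GRCh38.p7 and counted with RSEM. The sources used here give no annotation, strand setting or RSEM version. Of the values 12.0% are not whole, since RSEM divides ambiguous reads, and they were rounded. Totals of 31.1 to 52.9 M counts per library limit precision chiefly for members near 1 CPM.

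Genes were kept with filterByExpr of edgeR 4.0.16 (16555 genes, library sizes scaled by TMM). A single quasi-likelihood fit of all 16 libraries, with a mean per treatment, gave every adjusted p (Benjamini-Hochberg over the 16555 genes, threshold 0.05), except where DESeq2 1.42.0 is named. SE is the absolute log2 fold change divided by the square root of F. The script was tested on simulated counts. R 4.3.3, Python 3.11.15, pandas 2.3.3, numpy 2.4.6 and matplotlib 3.10.9 were used. Positions, gene types and exon overlaps come from GENCODE release 29, and promoter sequences from RefSeq.

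The members and lists were chosen with earlier results of these data known. Named members are, per comparison, up to 6 higher and 6 lower with the largest change among those past the threshold whose groups do not overlap and whose higher group averages at least 2 CPM; the 10 highest per kb; up to 5 pairs per comparison in which antisense RNA and partner both passed, by the larger p; and members named after HOX genes. Further members were chosen after seeing their values: the remaining calls with EZH2i and for the combination against PRMT5i, LINC01572, LINC00963, the protein-coding members and the remaining pairs. Alternatives were DESeq2 size factors, total counts, no filter, the DESeq2 test, a replicate block, a term for replicates 1 and 2 against 3 and 4, each of these sets alone, only the groups compared, and leaving out each library.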

Additional observations from a re-analysis of the deposited data

Results flagged for a closer look

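In groups of 4 libraries, 8 values stood apart from the other 3 by a gap beyond Dixon's 95% limit, out of 264 groups examined for 66 members; chance alone gives about 1 in 20 groups. AFAP1-AS1 stood at 2.66 CPM in PRMT5i replicate 1, below 3.69 to 3.83 in the other 3 libraries of that group. ASH1L-AS1 stood at 1.54 CPM in PRMT5i replicate 4, above 1.33 to 1.36 in the other 3 libraries of that group. LINC00657 stood at 215 CPM in DMSO replicate 2, below 298 to 305 in the other 3 libraries of that group. LINC00869 stood at 25.3 CPM in EZH2i replicate 1, above 19.7 to 20.2 in the other 3 libraries of that group. LINC01137 stood at 1.56 CPM in PRMT5i replicate 2, below 1.92 to 1.96 in the other 3 libraries of that group. OIP5-AS1 stood at 239 CPM in DMSO replicate 2, below 339 to 359 in the other 3 libraries of that group. TMEM161B-AS1 stood at 5.03 CPM in combination replicate 2, above 3.53 to 3.70 in the other 3 libraries of that group. TTC28-AS1 stood at 6.12 CPM in combination replicate 3, above 4.85 to 5.01 in the other 3 libraries of that group. AFAP1-AS1 kept its call with PRMT5i in each of the 8 fits without 1 library, and LINC00657 and OIP5-AS1 passed in no comparison of the treatments.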

How the results depend on the processing

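Choices of processing moved the counts of members past the threshold more than the direction of any named member: none of the 14, 47, 41 and 13 calls of named members (EZH2i, PRMT5i, combination, combination against PRMT5i) changed sign under any alternative run. All these runs use libraries from which the calls were made, so a kept sign is no separate support. Percentages in brackets here are of all genes tested in the same run. With EZH2i, the 6 higher and 8 lower members became 10 and 17 by the DESeq2 test (7.03% and 7.35%). They became 1 and 1 with only the groups compared (0.583% and 0.291%), and 0 and 0 with replicates 1 and 2 only (0% and 0%). The lower count was 1 with total counts (1.75%), 5 without a filter (1.23%) and 2 with replicates 3 and 4 only (3.14%). Leaving out 1 library gave 1 to 18 higher (1.72% to 13.5%) and 2 to 31 lower (1.25% to 13.7%). With PRMT5i, replicates 1 and 2 only gave 5 higher and 18 lower in place of 45 and 57 (3.71% and 4.86%). There, leaving out 1 library gave 34 to 44 (13.5% to 20.3%) and 47 to 64 (15.1% to 20.2%). In the combination against DMSO, replicates 1 and 2 only gave 6 and 17 in place of 35 and 61 (4.03% and 4.79%). Replicates 3 and 4 only gave 38 lower (15.3%) and total counts gave 54 higher (23.5%). There, leaving out 1 library gave 29 to 38 (14.6% to 21.3%) and 49 to 65 (15.5% to 20.8%). For the combination against PRMT5i, replicates 1 and 2 only gave 0 and 0 in place of 7 and 6 (0.00584% and 0%). Replicates 3 and 4 only gave 4 and 2 (2.77% and 0.848%). No filter gave 3 higher (1.07%) and only the groups compared gave 10 lower (5.6%). There, leaving out 1 library gave 0 to 5 (1.13% to 2.18%) and 3 to 5 (0.435% to 0.979%). For the interaction, replicates 3 and 4 only gave 2 higher (0.939%) and the DESeq2 test 1 lower (0.203%). There, leaving out 1 library gave 0 higher (0.148% to 0.492%) and 0 to 1 lower (0.0119% to 0.243%). A limit of 2 CPM left 162 members in place of 258. Fits with 2 libraries per group test with fewer samples; the cause of the other shifts was not tested.

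Replicate numbers were not taken to pair the samples, since for no 2 groups did all 4 same-numbered pairs correlate above 0.1. Of 24 same-numbered pairs of libraries 9 had correlated deviations above 0.1 (range −0.27 to 0.24). PRMT5i with the combination came nearest, at 0.21, 0.03, 0.24 and 0.14 for replicates 1 to 4. Pairs with unlike numbers had a median of −0.02 across all groups, and PRMT5i replicate 2 with combination replicate 1 reached 0.25. A replicate block gave 7 higher and 9 lower with EZH2i (4.87% and 3.77% of all genes). It gave 45 and 61 with PRMT5i (17.5% and 18.4%) and 37 and 59 in the combination (18.4% and 18.7%). For the combination against PRMT5i it gave 5 and 6 (3.59% and 1.59%), and for the interaction 0 and 0 (0.248% and 0.0544%). Under the block LINC00205 with EZH2i (adjusted p = 0.0638) and, for the combination against PRMT5i, LINC00205 (0.0522), ZNF337-AS1 (0.051) and ZNF436-AS1 (0.0596) missed the threshold, and no other call of a named member did.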

Other observations

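Genes with a LINC or antisense symbol but a mean under 1 CPM were tested as well, 227 of them. With PRMT5i 31 were higher and 25 lower, in the combination 33 and 25, with EZH2i 5 and 2, and for the combination against PRMT5i 1 and 0. With PRMT5i 24.7% of them passed, beside 39.5% of the members and 35.3% of all genes. In the combination 25.6% passed (36.2% of all genes), with EZH2i 3.08% (7.6%) and for the combination against PRMT5i 0.441% (4.16%). Low counts limit precision, and their part in these lower shares was not tested.

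Replicates 3 and 4 differed from replicates 1 and 2 across treatments in 3 of the 258 members (1.16%, beside 1.59% of all genes). LINC01140 was lower in replicates 3 and 4 by 0.94 on the log2 scale (edgeR adjusted p = 0.0152) and LINC00599 by 0.46 (adjusted p = 0.0197), while SGMS1-AS1 was higher by 0.52 (adjusted p = 0.0297). None of the 3 is named in the comparisons above.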
